A study of Mus musculus with 8 samples.

Results

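The 9 genes described here handle retinoids, the vitamin A compounds, in mouse liver: Retsat, Rbp4, Cyp26a1, Cyp26b1, Rdh11, Rdh16, Dhrs3, Aldh1a1 and Aldh1a7. They were chosen by symbol, as named enzymes and carriers of retinoid storage, transport and breakdown, and each matched 1 of the 56748 Ensembl gene IDs of the count table. The choice was made with earlier results of these data known. RNA-seq was done on liver RNA of mice given a diet high in fat and in fructose, with 4 libraries from miR-93 knockout mice and 4 from wild-type mice. Both groups carry the label MASLD, metabolic dysfunction-associated steatotic liver disease, at 16 weeks, so diet and disease label are shared and genotype is the only labelled difference. The labels give no strain, sex or age, do not say how or in which cells miR-93 was deleted, and do not say that each library is a separate animal, so p-values here reflect only how these libraries vary, part of which may be technical.

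Dietary vitamin A reaches the liver mainly as retinyl esters in chylomicron remnants, which hepatocytes take up and hydrolyse to retinol. Much of this retinol passes to hepatic stellate cells, where Lrat esterifies it again for storage. Hepatocytes send retinol back to the blood bound to Rbp4, which travels with transthyretin (Ttr). Retinol is oxidised reversibly to retinal by retinol dehydrogenases, and retinal irreversibly to retinoic acid by enzymes of the Aldh1a family such as Aldh1a1. Retinoic acid acts through nuclear receptors (Rara, Rarb, Rarg with Rxra, Rxrb or Rxrg) until Cyp26 enzymes hydroxylate it. Cyp26a1 and Rarb are textbook retinoic acid targets, each with a response element in its promoter made of 2 hexamers repeated in the same direction with a spacer of 5 bases (DR5). None of the 9 members forms retinyl esters, so for storage itself the wider pathway list below is the relevant set.

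The promoter sequences shown are those of the 2 genes with a DR5 and of the pair of close copies Aldh1a1 and Aldh1a7. RefSeq promoter windows, 250 bases before to 50 after each start on GRCm38.p6, were found for 9 of 9 members and for 53 of the 70 other retinoid genes listed for context. They were searched on both strands for 2 hexamers in the same direction. The hexamer AGGTCA was allowed, as were the hexamer AGTTCA, the hexamer GGGTCA and the hexamer GGTTCA, with a spacer of 5 bases (DR5), 2 bases (DR2) or 1 base (DR1). A DR5 was in 32 of 32851 windows (0.0974%), from 31 of 27025 genes; 1 of the 9 members had one, Cyp26a1, and 1 of the 53 listed genes, Rarb. A DR1 was in 0.222% of windows and a DR2 in 0.268%, in no member's window in either case. Of the 53 listed genes, 1 had a DR1, Bco1, and 0 had a DR2. The bases before the start are printed 5′ to 3′ on the strand of the gene, with the DR5 in capitals.
Cyp26a1 (chr19:37697558-37697807, plus strand): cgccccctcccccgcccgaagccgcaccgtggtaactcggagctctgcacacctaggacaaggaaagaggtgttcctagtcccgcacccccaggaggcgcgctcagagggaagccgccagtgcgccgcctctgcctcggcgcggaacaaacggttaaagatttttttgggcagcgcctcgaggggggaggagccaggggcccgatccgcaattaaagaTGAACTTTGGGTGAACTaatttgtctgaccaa
Rarb (chr14:16575477-16575726, minus strand): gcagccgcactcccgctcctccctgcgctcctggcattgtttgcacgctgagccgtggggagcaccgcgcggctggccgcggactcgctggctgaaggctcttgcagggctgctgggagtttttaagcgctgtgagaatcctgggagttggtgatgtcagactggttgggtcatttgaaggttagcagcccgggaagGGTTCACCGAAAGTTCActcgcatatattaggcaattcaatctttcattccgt
In Cyp26a1 the repeat lies 32 to 16 bases before the start and reads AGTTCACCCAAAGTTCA on the opposite strand. In Rarb it lies 53 to 37 bases before the start and reads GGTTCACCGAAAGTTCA on the strand of the gene. A match describes these letters only and was not tested as a binding site.

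Aldh1a1 and Aldh1a7 lie on the same chromosome and share most of the sequence next to their starts. Their 80 bases before the start are shown because the split of counts between these copies, given below, differed between the groups; capitals mark the 3 positions that differ, and 77 of 80 are identical.
Aldh1a1 (chr19:20601888-20601967, plus strand): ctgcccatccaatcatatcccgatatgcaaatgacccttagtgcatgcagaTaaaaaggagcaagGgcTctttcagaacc
Aldh1a7 (chr19:20727557-20727636, minus strand): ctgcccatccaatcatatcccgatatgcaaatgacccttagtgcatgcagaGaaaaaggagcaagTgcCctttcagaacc
Over the full windows, 233 of 322 aligned columns (72.4%) were identical. RefSeq gives another Aldh1a1 window, at chr19:20492333-20492632, which was less similar to that of Aldh1a7, with 192 of 356 aligned columns (53.9%) identical.

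The 5p arm of the deleted microRNA, miR-93-5p, is 23 bases long and lies at chr5:138165574-138165596 on the minus strand of GRCm38.p6. Its mature sequence is shown with the seed, bases 2 to 8, in capitals, since a seed match in a 3′ UTR is how a microRNA usually recognises a transcript.
mmu-miR-93-5p: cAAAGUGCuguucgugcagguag
The letters that pair with the seed, GCACTTT, were in the longest annotated 3′ UTR of 1 of the 9 members, Cyp26b1, at base 2377 of 2853. Over all genes with an annotated 3′ UTR, 2474 of 21045 (11.8%) held at least 1 match.

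The libraries held 9187279 to 10966019 counts in the knockout group and 5085860 to 7451026 in the wild-type group. Mitochondrial transcripts made up 8.08% to 15.0% of knockout counts and 25.4% to 77.8% of wild-type counts (two-sided exact permutation test, p = 0.0286, the smallest that 70 assignments of 4 against 4 allow). Wild-type replicate 4 stood apart, with 77.8% mitochondrial counts and 1131446 nuclear counts. Mir93 itself had 0 counts in all 8 libraries, so these data do not check the knockout labels. The 8 hepatocyte markers were all detected in the summed range of 44918 to 60766 CPM, whereas the summed 4 adipocyte markers stayed at or below 0.825 CPM, with Lep at 0 in every library.

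Of the 9 members, 3 rose in the knockout livers (Retsat, Rbp4 and Aldh1a1), 2 fell (Cyp26a1 and Rdh11) and 4 did not pass the test (Cyp26b1, Rdh16, Dhrs3 and Aldh1a7). Levels are CPM, counts scaled to library size and TMM factor, a call is an edgeR quasi-likelihood adjusted p under 0.05, and errors are SD over 4 libraries for levels and SE for log2 fold changes. Over the 13204 genes tested, 21.0% were called, 10.4% higher and 10.7% lower in the knockout, and the median log2 fold change was -0.01. The same 5 members had groups that did not overlap, beside 30.3% of all genes tested, and the median over the 9 members was 0.09. With library size alone as scaling, which puts the median gene at 0.54 (log2), Retsat and Cyp26a1 were called and Rbp4, Rdh11 and Aldh1a1 were not (edgeR adjusted p = 0.0513, 0.117 and 0.139). In bulk tissue, fewer cells that express a gene and less RNA per cell cannot be told apart.

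**Figure D1:**
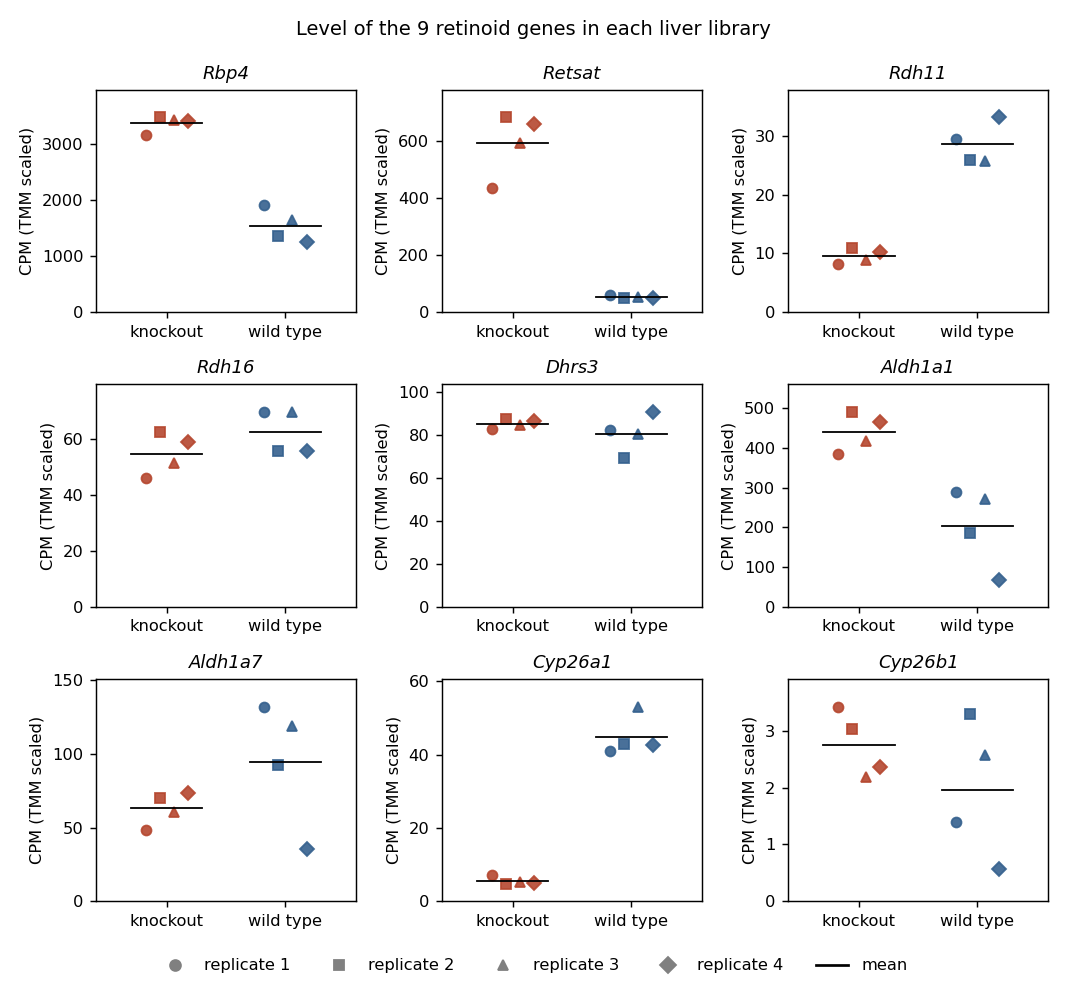
Level of each of the 9 members in each library, in CPM after TMM scaling on linear axes from 0 with 1 scale per gene; points are libraries, shapes are replicate numbers and lines are group means. Retsat (436 to 683 against 50.6 to 60.9 CPM) and Cyp26a1 (4.88 to 7.08 against 41.0 to 53.1 CPM) show the widest gaps between groups, and Aldh1a1, Aldh1a7 and Cyp26b1 have their lowest wild-type level in replicate 4.

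Retsat, retinol saturase, converts retinol to a dihydroretinol and is the member with the largest difference. Its level was 436, 683, 592 and 661 CPM in knockout replicates 1 to 4 and 60.9, 50.6, 54.5 and 50.6 CPM in wild-type replicates 1 to 4. Every knockout library lay above every wild-type library by a wide margin, and the wild-type libraries lay close together. The log2 fold change was 3.45 ± 0.18 (10.9-fold, edgeR adjusted p = 4.67e-07), from 593 ± 112 against 54.1 ± 4.85 CPM (SD, n = 4 each). It rested on 5351 to 8683 counts per knockout library and 90 to 482 per wild-type library. Knockout replicate 1 was the lowest of its group for Retsat and the highest for Cyp26a1.

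Rbp4, the plasma carrier that takes retinol out of the liver, was the most abundant member in both groups. Its level was 3155, 3465, 3416 and 3397 CPM in the knockout libraries and 1904, 1363, 1638 and 1247 CPM in the wild-type libraries. The groups did not overlap, and the knockout libraries were closer together than the wild-type libraries. Rbp4 rose by a log2 fold change of 1.13 ± 0.16 (2.18-fold, edgeR adjusted p = 0.000651). Its partner in plasma, Ttr, did not pass the test, at 3188 ± 125 CPM in the knockout and 4284 ± 1559 CPM in the wild type (SD, n = 4 each), a log2 fold change of -0.43 ± 0.25 with an edgeR adjusted p of 0.247. Without wild-type replicate 4 the log2 fold change of Ttr was -0.64 (edgeR adjusted p = 8.58e-06). The ratio of Rbp4 to Ttr counts within a library, a measure chosen after the values were seen and given with no test, was 1.03, 1.10, 1.02 and 1.06 in the knockout and 0.336, 0.323, 0.320 and 0.586 in the wild type. As a ratio within a library, it does not depend on the scaling between libraries.

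Among the enzymes that interconvert retinol and retinal, Rdh11 fell, and Rdh16 and Dhrs3 did not pass the test. Rdh11, a membrane-bound enzyme that mainly reduces retinal to retinol, was at 8.14, 10.9, 8.91 and 10.2 CPM in the knockout and 29.6, 26.0, 25.8 and 33.2 CPM in the wild type. All 4 knockout libraries were below all 4 wild-type libraries, including replicate 4. The log2 fold change was -1.57 ± 0.15 (2.96-fold lower, edgeR adjusted p = 5.10e-05).

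Rdh16, which oxidises retinol to retinal, was at 46.2, 62.5, 51.6 and 58.9 CPM in the knockout and 69.7, 55.9, 69.6 and 55.7 CPM in the wild type, and the groups overlapped. Its log2 fold change was -0.20 ± 0.15 with a 95% interval of -0.52 to 0.12 (edgeR adjusted p = 0.352). With scaling by library size only it was 0.34 (edgeR adjusted p = 0.577), on the opposite side of 0. Rdh16 belongs to a family of close copies, and no source used here says how reads shared by copies were counted. Its coding sequence was 96.3% identical to that of Rdh9, and 19.4% of its 100-base words also occurred there, so its value is uncertain. With the 5 relatives Rdh1, Rdh7, Rdh9, Rdh16f2 and Rdh19 added to Rdh16, the log2 fold change of the sum was 0.44 (edgeR adjusted p = 0.0715). Most of that sum was Rdh7, at 850 ± 82.2 CPM in the knockout and 624 ± 118 CPM in the wild type. Rdh7 alone had a log2 fold change of 0.45 ± 0.17 (edgeR adjusted p = 0.0777), so the sum says little about Rdh16 itself.

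Dhrs3, which reduces retinal to retinol and is known to be induced by retinoic acid, was at 82.5, 87.5, 84.5 and 86.4 CPM in the knockout and 82.0, 69.3, 80.3 and 90.5 CPM in the wild type. The groups overlapped. Its log2 fold change of 0.09 ± 0.13 had a 95% interval of -0.19 to 0.36 (edgeR adjusted p = 0.660).

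Of the 2 members of the Aldh1a family, Aldh1a1 rose and Aldh1a7 did not pass the test. Whether Aldh1a7, like Aldh1a1, acts on retinal was not tested here. Aldh1a1, which oxidises retinal to retinoic acid, was at 386, 491, 418 and 466 CPM in the knockout and 289, 186, 270 and 67.5 CPM in the wild type. The groups did not overlap, and wild-type replicate 4 was far below the other wild-type libraries. The log2 fold change was 1.11 ± 0.34 (2.15-fold, edgeR adjusted p = 0.0398). This call was lost when any 1 of the knockout replicates or wild-type replicate 2 was left out (edgeR adjusted p = 0.0693 to 0.111), and with no filter on low counts (0.132). Without wild-type replicate 4 the log2 fold change was 0.83 (edgeR adjusted p = 3.43e-05).

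Aldh1a7, a close copy of Aldh1a1 in the mouse, was at 48.0, 70.3, 60.4 and 73.4 CPM in the knockout and 132, 92.2, 119 and 35.4 CPM in the wild type. Wild-type replicates 1 to 3 lay above all knockout libraries and replicate 4 below them all. The log2 fold change was -0.61 ± 0.31, with a 95% interval of -1.29 to 0.07 (edgeR adjusted p = 0.182), and without wild-type replicate 4 it was -0.85 (edgeR adjusted p = 5.08e-05). The coding sequences of the 2 genes, 1506 bases each, were 91.9% identical. Of the words of Aldh1a1, 10.4% of those of 50 bases and 0.0711% of those of 100 bases also occurred in Aldh1a7, so reads of 100 bases or more in coding sequence could seldom match both exactly, and shorter ones could at times.

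The split of counts between these copies within a library differed between the groups. Aldh1a7 made up 11.1%, 12.5%, 12.6% and 13.6% of the Aldh1a1 and Aldh1a7 counts in the knockout libraries and 31.3%, 33.2%, 30.5% and 34.4% in the wild-type libraries. The groups did not overlap, and wild-type replicate 4 lay next to the other wild-type libraries, although its 63 Aldh1a7 counts of 183 give an exact 95% binomial interval of 27.6% to 41.8%, which covers counting error only. The mean share was 12.5 ± 1.05% against 32.4 ± 1.76% (SD, n = 4 each; two-sided exact permutation test, p = 0.0286, the smallest this design allows). The difference was -19.9 percentage points, and -20.5 to -19.2 with any 1 library left out. Summed, the 2 genes gave a log2 fold change of 0.75 (edgeR adjusted p = 0.130).

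**Figure D2:**
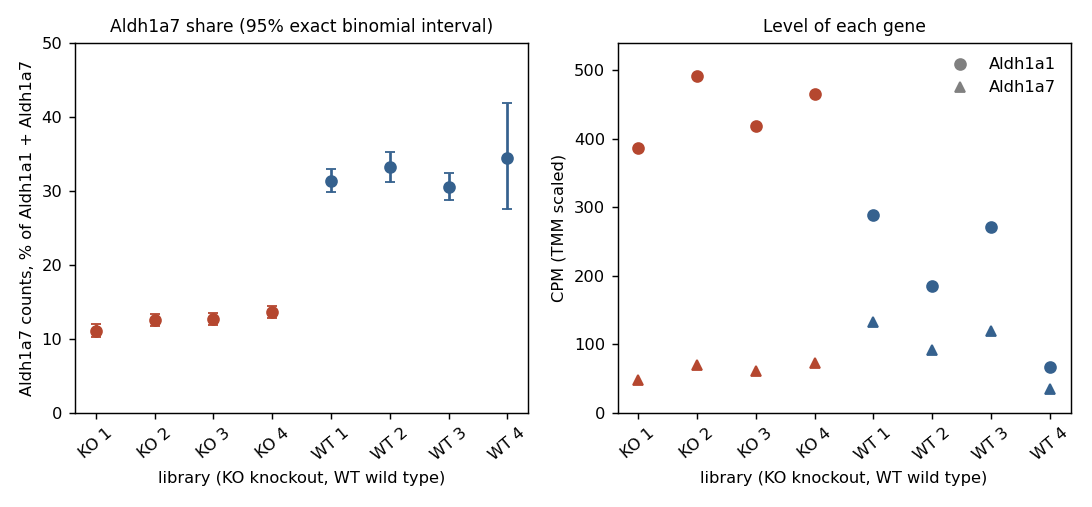
Left, share of Aldh1a7 in the counts of Aldh1a1 and Aldh1a7, in percent, for each library, with exact 95% binomial intervals as error bars; right, the level of each gene in CPM. The 4 knockout libraries lie at 11.1% to 13.6% and the 4 wild-type libraries at 30.5% to 34.4%, with the widest interval in wild-type replicate 4.

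Cyp26a1, the liver enzyme that hydroxylates retinoic acid, fell. Its level was 7.08, 4.88, 5.19 and 5.10 CPM in the knockout libraries and 41.0, 43.0, 53.1 and 42.7 CPM in the wild-type libraries. The groups were far apart, and wild-type replicate 4 lay within the range of the others. The log2 fold change was -3.02 ± 0.17 (8.09-fold lower, edgeR adjusted p = 7.21e-07), from 5.56 ± 1.02 against 45.0 ± 5.48 CPM (SD, n = 4 each). Counts were 58 to 87 per knockout library and 76 to 350 per wild-type library. Rarb, the other gene whose DR5 is printed above, also fell, by 1.49 ± 0.43 on the log2 scale (edgeR adjusted p = 0.0320), but its groups overlapped because wild-type replicate 4 held 1 count, against 34 to 38 in the other wild-type libraries and 14 to 24 in the knockout libraries. Its call was lost without any 1 library other than wild-type replicate 4 (edgeR adjusted p = 0.0603 to 0.110).

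Cyp26b1, a related hydroxylase, was low in both groups, at 3.42, 3.03, 2.19 and 2.36 CPM in the knockout and 1.39, 3.30, 2.58 and 0.562 CPM in the wild type. The groups overlapped, and the lowest value came from 1 count in wild-type replicate 4. The log2 fold change of 0.34 ± 0.39 had a 95% interval of -0.53 to 1.20 (edgeR adjusted p = 0.581), which includes both no difference and the size seen for Rbp4. The 2 coding sequences were 58.8% identical, with no 50-base word in common.

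**Figure D3:**
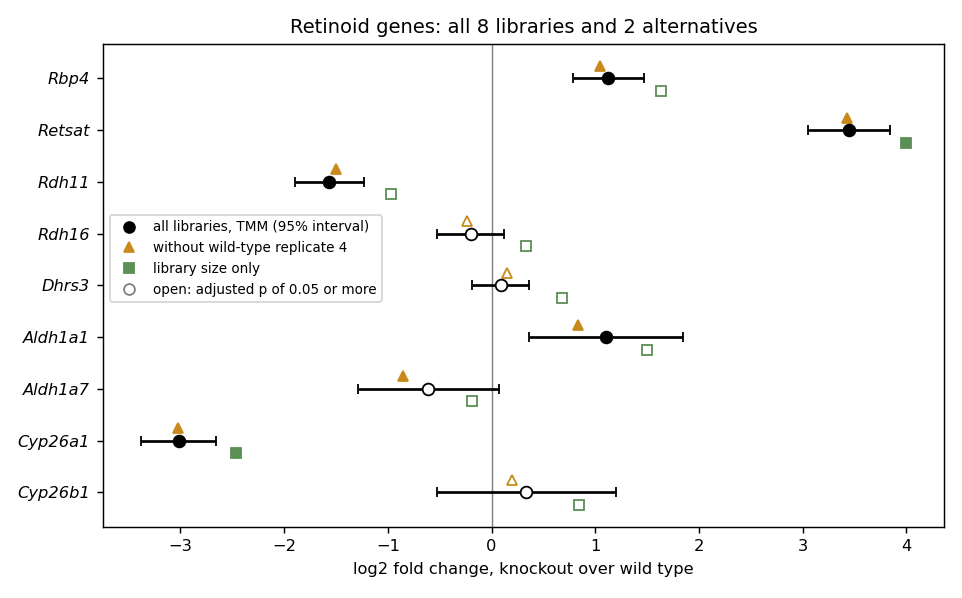
Log2 fold change of knockout against wild type for the 9 members, as circles with 95% intervals from the edgeR fit, beside the value without wild-type replicate 4 (triangles) and with library size only (squares); open symbols have an adjusted p of 0.05 or more, and values above 0 are higher in the knockout. Retsat (3.45) and Cyp26a1 (-3.02) lie farthest from 0 on opposite sides, and the intervals of Cyp26b1, Rdh16, Dhrs3 and Aldh1a7 include 0.

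The order of the members by level was compared on a per-length scale, CPM per kilobase of exon. In the wild-type livers Rbp4 led at 1145 ± 219, followed by Aldh1a7 (45.8 ± 20.7), Aldh1a1 (41.1 ± 20.5), Dhrs3 (27.5 ± 2.98), Cyp26a1 (22.7 ± 2.77), Retsat (15.3 ± 1.37), Rdh16 (10.1 ± 1.29), Rdh11 (8.28 ± 1.01) and Cyp26b1 (0.366 ± 0.228). Neighbours from Aldh1a7 to Cyp26a1, and Rdh16 and Rdh11, overlapped between libraries, so their order is not resolved. The order of Aldh1a7 and Aldh1a1 also depends on the exon lengths used, 2066 and 4937 bases. In counts, Aldh1a1 was above Aldh1a7 in every wild-type library (2287, 1351, 1783 and 120 against 1044, 671, 784 and 63). In the knockout livers Rbp4 led at 2501 ± 103, and Retsat was next at 168 ± 31.6, above Aldh1a1 (89.2 ± 9.54), Aldh1a7 (30.5 ± 5.52), Dhrs3 (29.1 ± 0.754) and Rdh16 (8.82 ± 1.18). Cyp26a1 (2.81 ± 0.515) and Rdh11 (2.76 ± 0.364) overlapped there, as did Aldh1a7 and Dhrs3, and Cyp26b1 was last at 0.514 ± 0.107. The ratio of Retsat to Cyp26a1 counts within a library was 61.5, 140, 114 and 130 in the knockout and 1.48, 1.18, 1.03 and 1.18 in the wild type, a description of the 2 largest differences.

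The wider list of 70 other retinoid genes gives the setting of the members. Of these, 47 were tested, 9 were higher, 8 were lower and 30 did not pass, beside 21.0% called over all genes tested; the list median was -0.17. With library size alone as scaling, 4 were called: Rdh16f2, Dhrs4, Rdh9 and Cyp2c39. Of the other 23, which were too low to test, 9 had no count in any library.

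**Figure D4:**
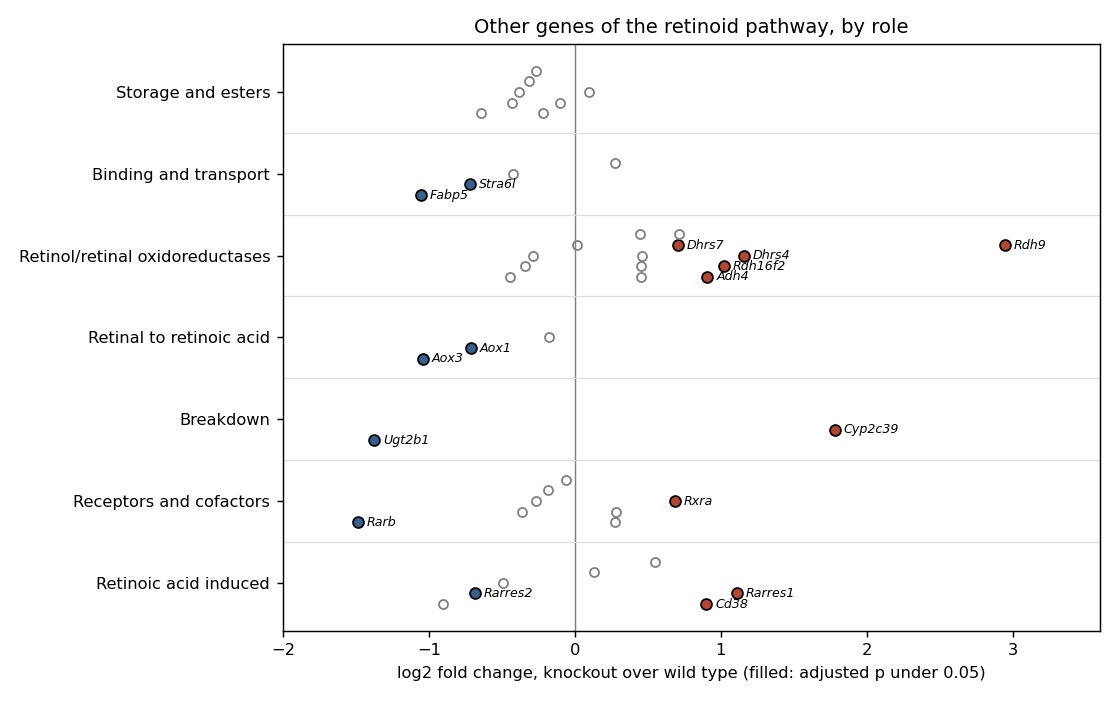
Log2 fold change of knockout against wild type for tested genes of the wider retinoid list that are reported here, grouped by role; filled points are called genes and open points are not. The oxidoreductases of the wider list hold 5 higher and 0 lower calls among 14 tested, and the storage and ester genes 0 calls among 8; over all genes tested, 10.4% were higher and 10.7% lower.

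The role groups are small, and their counts are given as descriptions beside the 10.4% of all genes tested that were higher and the 10.7% that were lower. Storage and ester genes gave 0 calls among 8 tested of 9, a count that 21.0% called over all genes does not set apart. Lrat, which esterifies retinol, was at 5.09 ± 0.802 CPM in the knockout and 8.53 ± 3.86 CPM in the wild type, a log2 fold change of -0.64 ± 0.30 (edgeR adjusted p = 0.151). Of 18 alternatives, 1 gave a call: leaving out wild-type replicate 2 moved Lrat to -0.88 (edgeR adjusted p = 0.0488). Without wild-type replicate 4, its highest library at 13.5 CPM from 24 counts, Lrat was at -0.43 (edgeR adjusted p = 0.166). With library size only it was at -0.02 (edgeR adjusted p = 0.976). Bco1, which cleaves beta-carotene to retinal, did not pass either, at -0.31 ± 0.32 (edgeR adjusted p = 0.530).

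Of 12 binding and transport genes, 5 were tested and 3 fell, Stra6l and Fabp5 among them. Stra6l, a receptor for Rbp4 in liver, fell from 127 ± 19.96 to 77.3 ± 4.53 CPM in the knockout, a log2 fold change of -0.72 ± 0.14 (edgeR adjusted p = 0.00554). Fabp5, which can carry retinoic acid, fell by 1.06 ± 0.33 (edgeR adjusted p = 0.0410), a call lost without any 1 knockout replicate or wild-type replicate 1 or 3 (edgeR adjusted p = 0.0600 to 0.136).

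Of 23 other oxidoreductases, 14 were tested and 5 rose. Rdh16f2, a relative of Rdh16 with 91.5% coding identity to it, rose from 35.6 ± 3.88 to 72.2 ± 2.11 CPM (log2 fold change 1.02 ± 0.13, edgeR adjusted p = 0.000284). Dhrs4, a peroxisomal reductase of retinal, rose from 51.2 ± 7.91 to 114 ± 18.6 CPM (1.16 ± 0.17, edgeR adjusted p = 0.000909). Dhrs7 and Adh4 rose by 0.71 ± 0.16 and 0.91 ± 0.24 on the log2 scale (edgeR adjusted p = 0.00916 and 0.0232). After thinning all libraries to the nuclear depth of wild-type replicate 4, the calls of Dhrs7 and Adh4 were lost. Dhrs7 was then at 0.26 and Adh4 at 0.82 (edgeR adjusted p = 0.488 and 0.0684). Rdh9 had 17, 24, 16 and 17 counts in the knockout and 0, 1, 1 and 2 in the wild type; it shares words with Rdh16 and is uncertain. The calls of Adh4 and Rdh9 were lost with single libraries left out: Adh4 with wild-type replicate 2 or knockout replicate 2, 3 or 4 left out (edgeR adjusted p = 0.0604 to 0.0783), and Rdh9 with wild-type replicate 2 or 3 or knockout replicate 2 left out (0.0556 to 0.0650).

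Among 5 other genes listed for the step from retinal to retinoic acid, 3 were tested. Aox3 and Aox1, aldehyde oxidases, fell by 1.04 ± 0.14 and 0.71 ± 0.14 on the log2 scale (edgeR adjusted p = 0.000410 and 0.00512). Aldh1a2, the embryonic retinal dehydrogenase, had 0 to 3 counts per library and was not tested. Of 4 other breakdown genes, 2 were tested. Ugt2b1, a glucuronosyltransferase, fell from 293 ± 37.4 to 113 ± 8.89 CPM (-1.37 ± 0.14, edgeR adjusted p = 8.02e-05). Cyp2c39, a hydroxylase of retinoic acid, had 18 to 26 counts per knockout library and 0 to 5 per wild-type library, a log2 fold change of 1.78 ± 0.46 (edgeR adjusted p = 0.0194) that lost its call when wild-type replicate 2 or knockout replicate 2 or 3 was left out (0.0558 to 0.0667).

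All 8 receptors and cofactors were tested. Rxra, the partner of all 3 retinoic acid receptors, rose from 165 ± 10.9 to 266 ± 21.5 CPM (0.68 ± 0.13, edgeR adjusted p = 0.00376), Rarb fell as given above, and Rara did not pass at -0.36 ± 0.15 (edgeR adjusted p = 0.106). Of 9 genes widely described as induced by retinoic acid, 7 were tested, 2 rose and 1 fell. Rarres1 rose by 1.11 ± 0.20 (edgeR adjusted p = 0.00312) and Cd38 by 0.90 ± 0.24 (0.0227), while Rarres2, the adipokine chemerin, fell by 0.69 ± 0.22 (0.0480). The call of Cd38 was lost when wild-type replicate 2 or knockout replicate 1, 2 or 4 was left out (edgeR adjusted p = 0.0585 to 0.0772), and that of Rarres2 without any 1 library other than wild-type replicate 4 (0.102 to 0.129). Cd38 also lost its call after thinning (0.98, edgeR adjusted p = 0.0752). Tgm2, Nrip1, Ripk3 and Sox9 did not pass, and Stra8 had no count in any library.

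Genes that mark the cells of the liver were compared beside these results. Of the 8 hepatocyte markers, 3 were higher (Fgb, Ahsg and Apob) and 2 were lower (Alb and Tat). Their sum was 50368 ± 3723 CPM in the knockout and 55891 ± 4407 CPM in the wild type (two-sided exact permutation p = 0.114). Pericentral hepatocyte markers, 8 genes of which 7 were tested and 4 were higher, summed to 7400 to 8248 CPM in the knockout and 1225 to 2915 CPM in the wild type (7703 ± 379 against 2277 ± 747, two-sided exact permutation p = 0.0286, the smallest possible). Most of this sum was Cyp2e1, at 5974 to 7047 CPM in the knockout and 771 to 1616 CPM in the wild type. Glul, Slc1a2 and Tbx3 were also higher, while Lect2 and Axin2 did not pass, and Oat was at 477 to 507 CPM in the knockout, 856 to 967 CPM in wild-type replicates 1 to 3 and 174 CPM in replicate 4 (log2 fold change -0.59 ± 0.39, edgeR adjusted p = 0.309). Periportal markers, 6 genes with 1 higher and 2 lower, summed to 4973 ± 364 against 7404 ± 268 CPM (exact permutation p = 0.0286), but with library size alone as scaling the log2 ratio of their means was -0.0196. Retinol storage cells were compared through 14 stellate cell markers, of which 12 were tested, 0 were higher and 2 were lower (Col1a1 and Col3a1). Their sum was 219 to 262 CPM in the knockout and 231 to 518 CPM in the wild type (exact permutation p = 0.914), and without wild-type replicate 4 the log2 ratio of the means turned from -0.29 to 0.10. Sinusoidal endothelial markers, with 5 of 6 higher, summed to 106 against 44.3 CPM, and B cell markers, with 4 of 4 lower, to 4.67 against 34.1 CPM, each with exact permutation p = 0.0286. The 5 cholangiocyte markers summed to 32.2 against 16.5 CPM (exact permutation p = 0.0286), mostly from Spp1, the 1 called gene of the 2 tested, at 19.9 to 26.4 CPM in the knockout and 6.75 to 16.1 CPM in the wild type. Kupffer cell markers, with 4 of 7 higher, summed to 124 against 70.0 CPM (exact permutation p = 0.143), a log2 ratio of 0.83 that was 1.52 without wild-type replicate 4. Adjusted over the 12 measures per library compared in this way, the Aldh1a7 share included, each exact permutation p of 0.0286 became 0.0429. The part of any of these, or of the mitochondrial share, in the differences of the members was not tested.

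The genes with the most similar pattern over the 8 libraries were taken by the root mean square difference between log2 CPM profiles, each centred on its own mean, a description in which all genes share the same libraries. Retsat was nearest to Lrg1 (0.283) and Apoa4 (0.318), and Cyp26a1 to Acly (0.255) and Hcn3 (0.264). The difference is not scaled by how widely a profile varies, so it does not rank the members by closeness. Cyp26b1, with a mean under 10 CPM, was not compared. Rbp4 was nearest to Rps3a1 (0.0813) and Acadvl (0.0894), and Rdh11 to Ager (0.0850) and Ces2a (0.124). Rdh16 was nearest to Pik3r1 (0.0772) and Pcmt1 (0.0827), and Dhrs3 to Serpinf2 (0.0417) and Ocel1 (0.0506). Aldh1a1 was nearest to Rtcb (0.0787) and Grpel1 (0.103), and Aldh1a7 to Gas2 (0.0904) and Inmt (0.121).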

How the data were processed

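Liver RNA of 8 libraries, 4 knockout and 4 wild type, was measured by RNA-seq. The authors deposited raw counts per Ensembl gene ID, with no normalization. Per the submitters' processing notes, cutadapt 4.2 and STAR 2.7.10a were used on mm39; no source used here names the counting tool. Symbols, coding sequences, 3′ UTRs and exon lengths came from GENCODE M21, and promoter windows and the microRNA sequence from RefSeq tables. Both are on GRCm38, so no coordinates of the authors' build are given. IDs with no symbol, 4675 of 56748, held 0.332% to 1.57% of each library's counts.

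In R 4.3.3, edgeR 4.0.16 (TMM, filterByExpr, robust quasi-likelihood fit, two-sided, Benjamini-Hochberg over the 13204 genes tested, threshold 0.05) compared the groups with no block, since the labels name no batch. Single measures per library were compared by exact permutation over 70 assignments. The limit that a count of 0 allows, 3 counts, was 0.219 to 1.69 CPM. All 9 members were named, and of the 70 other genes the 17 called and 9 set by name; for pattern neighbours, the 2 nearest genes per member at a mean of 10 CPM or more. A gene that this rule takes is not reported here. The members and lists were chosen with earlier results of these data known. Of these steps, only the edgeR fit was run on simulated counts. Those had the same dispersion for every gene and no deviating library, so they do not cover a library such as wild-type replicate 4. Alternatives were DESeq2 1.42.0 (size factors and Wald test), upper quartile scaling, library size only, other filters, limma-voom 3.58.1, plain or with quality weights, a replicate block, no mitochondrial genes, thinning to 1131446 nuclear counts, summed copies, and each library left out in turn. Alignments used Biopython 1.88 and figures matplotlib 3.10.9.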

Additional observations from a re-analysis of the deposited data

Results flagged for a closer look

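Of 86 group values checked, 13 had 1 library whose gap to the nearest other, as a part of the range of its 4 libraries, exceeded Dixon's 95% critical value; chance gives this in about 1 in 20 groups. Among the members, Cyp26a1 did so in both groups: 53.1 CPM in wild-type replicate 3, with the others at 41.0 to 43.0, and 7.08 CPM in knockout replicate 1, with the others at 4.88 to 5.19. Both values are on the same side of the gap between the groups as the rest of their group. The ratio of Rbp4 to Ttr counts was 0.586 in wild-type replicate 4 and 0.320 to 0.336 in the other wild-type libraries.

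In the wider retinoid list, Rarb was at 0.562 CPM, from 1 count, in wild-type replicate 4 (others 4.67 to 5.31 CPM), and Rdh9 at 1.12 CPM, from 2 counts, in the same library (others 0 to 0.152 CPM). Dhrs4 was at 39.4 CPM in wild-type replicate 2 (others 53.6 to 56.2 CPM). Rxra was at 182 CPM in wild-type replicate 2 (others 158 to 161 CPM) and at 234 CPM in knockout replicate 1 (others 274 to 281 CPM). Rarres2 was at 368 CPM in knockout replicate 3 (others 340 to 343 CPM).

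Among cell type marker sums, wild-type replicate 4 stood apart for stellate cells (518 CPM, others 231 to 238) and Kupffer cells (150 CPM, others 35.2 to 49.5). Knockout replicate 1 stood apart for stellate cells (219 CPM, others 260 to 262) and periportal hepatocytes (4430 CPM, others 5120 to 5212). Of the 13 values, 5 came from wild-type replicate 4, the library with 77.8% mitochondrial counts.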

How the results depend on the processing

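Retsat and Cyp26a1 kept their direction and call under all 19 alternatives, with log2 fold changes of 3.38 to 3.58 and -3.14 to -2.92 when 1 library was left out. Rbp4 and Rdh11 kept theirs under 18 of 19. The count of all genes called, 2777, moved to 685 with library size only, 4984 with voom quality weights, 1267 with the replicate block, 1593 after thinning, and 1489 to 4853 with 1 library left out. Library size only raised the median gene by 0.54 (log2), and 81.9% of its calls were higher in the knockout, against 49.3%. There the members called went from 5 to 2 (Retsat, Cyp26a1), Rbp4 read 1.64 (edgeR adjusted p = 0.0513), Rdh11 -0.97 (0.117), Aldh1a1 1.497 (0.139), Rdh16 0.34, Rara 0.23 and Bco1 0.27. The 17 calls of the wider list became 4 with library size only, 26 with quality weights, 10 with the block, 11 after thinning and 10 to 25 with 1 library left out.

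Aldh1a1 lost its call with no filter on low counts (1.15, edgeR adjusted p = 0.132), with the block (1.27, 0.0649) and summed with Aldh1a7 (0.75, 0.130), and ran from 0.83 to 1.33 with 1 library left out. Aldh1a7 was called with quality weights (-0.77, limma adjusted p = 0.00108) and without wild-type replicate 4 (-0.85), with a range of -0.85 to -0.41. Rdh16 summed with its relatives, a sum made up mostly of Rdh7, read 0.44, Aldh1a7 summed with Aldh1a1 0.75, and Dhrs3 after thinning -0.0026. Marker ratios (log2) moved with library size only, to 0.50 for stellate cells, 0.39 for hepatocytes, 1.77 for Kupffer cells and -0.0196 for periportal hepatocytes, and without wild-type replicate 4 to 0.10 for stellate and 1.52 for Kupffer cells. For hepatocytes, library size only reversed the sign, since the TMM-scaled sum was lower in the knockout (50368 against 55891 CPM). The cause of these moves was not tested.

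Same-numbered libraries did not deviate together (r = -0.19 to -0.03 over genes), so the numbers were not taken to pair them. The replicate block called 4 of the 9 members. At the depth of wild-type replicate 4, where 3 counts are 1.69 CPM, differences in Cyp26b1, Rarb, Rdh9 and Cyp2c39 are poorly resolved.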
